A study of Homo sapiens with 8 samples.

Results

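RNA levels of 40 genes for iron- and 2-oxoglutarate-dependent dioxygenases were followed through nickel exposure and wash-out in BEAS-2B cells, immortalised human cells of the bronchial epithelium. The 40 genes were picked by symbol, as known members of the enzyme family, from the 25411 genes listed for every library, and each of the 40 was found. They comprised 4 hydroxylases of the hypoxia-inducible factors (HIF), 3 collagen prolyl 4-hydroxylase subunits, 3 procollagen lysyl hydroxylases, 3 TET genes, 9 genes of the ALKBH and FTO group, 11 histone demethylases with a Jumonji (JmjC) domain, 5 other JmjC genes and 2 further hydroxylases. RNA-Seq was carried out on 8 libraries, 2 biological replicates in each of 4 groups. Untreated cells (UT) were the control, and nickel-exposed cells (Ni-E) had been cultured in 100 µM NiCl2 over 6 weeks. The washed-out cells (Ni-W) were exposed in the same way and then grown from individual cells as colonies and kept without nickel for over 6 months. A further group, HCl3, carries the treatment description of Ni-W, and its time without nickel and its relation to Ni-W are not given. Per the study's methods Ni-W was a population expanded from a single nickel-exposed cell, so the spread between its libraries does not cover differences between clones. The labels carry experiment number 2 for Ni-E and numbers 3 and 4 for the 2 libraries of HCl3 and leave UT and Ni-W without one, so experiment and group cannot be told apart.

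These enzymes hold ferrous iron in the active site, take up oxygen and 2-oxoglutarate, and hydroxylate a protein, a nucleic acid or a lipid. For some methylated substrates this removes the methyl group. Nickel ions can occupy the iron site, and inhibition of the family is a textbook explanation for the hypoxia-like response of nickel-treated cells. In oxygenated cells the EGLN enzymes hydroxylate HIF alpha subunits, which are then bound by VHL and degraded, and several family members are themselves transcribed from HIF-responsive genes. The libraries measure RNA, and enzyme activity was not measured.

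During exposure no member changed past the threshold and after wash-out a few did, and the share of all genes called was also higher after wash-out. A gene was called when its DESeq2 adjusted P value was under 0.05 and its change at least 1.5-fold, and all 40 members were tested in each of the 6 comparisons. In Ni-E against UT 0 members were called by DESeq2, against 5.80% of the 14478 genes tested, and 0 by edgeR, against 1044 of 13566 genes. Limma called 0 members and 0 of all 17794 genes in this comparison, so its 0 for any list says nothing about that list. At an unadjusted DESeq2 P value under 0.05 there were 6 members. For this rule no share over all genes is given, here or for the lists below, so these counts cannot be set against a background. In Ni-W against UT 4 members were called, KDM3A and P4HA1 higher and KDM4C and TET1 lower, which is 10.0% of the members beside 15.7% of all genes. In HCl3 against UT 5 members were called, EGLN1, EGLN3, KDM3A, P4HA1 and P4HA2, all higher, which is 12.5% of the members beside 14.8% of all genes. The share of members called was not above that of all genes in any comparison with UT, and whether it differed was not tested. These comparisons use the same UT libraries. By the adjusted P value alone, whatever the fold, 3 members passed for Ni-E, 11 for Ni-W and 12 for HCl3, beside 11.6, 31.1 and 31.4% of all genes. Against Ni-E, 5 members were called in Ni-W (background 20.5%) and 7 in HCl3 (background 17.1%), and HCl3 differed from Ni-W at 1 member, EGLN3 (background 4.77%). Whatever the fold, the adjusted P value passed for 19 members in Ni-W against Ni-E, for 18 in HCl3 against Ni-E and for 5 in HCl3 against Ni-W (backgrounds 39.2, 37.6 and 16.6%). The count in Ni-W against Ni-E was 9 without Ni-E replicate 2 or Ni-W replicate 1 and 3 without Ni-W replicate 2. Across the comparisons, 10 members were called by DESeq2 in at least 1 comparison and 30 in none.

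**Figure D1:**
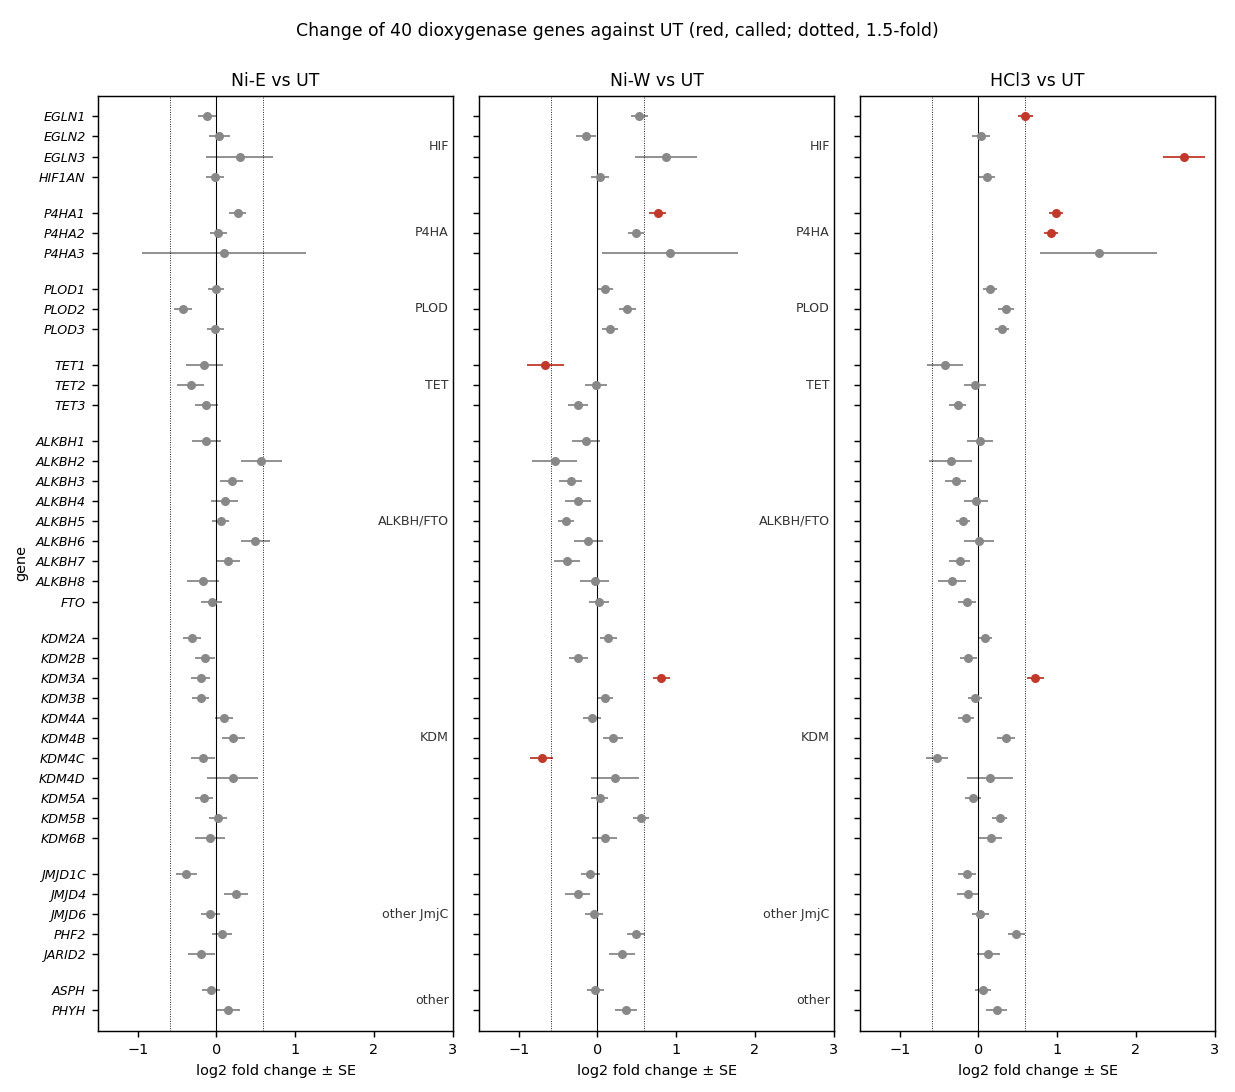
Log2 fold change ± standard error of each of the 40 members in Ni-E, Ni-W and HCl3 against UT (n = 2 libraries a group), ordered by role, with called members in red and dotted lines at 1.5-fold. No member is red in Ni-E, 4 are red in Ni-W and 5 in HCl3, where EGLN3 lies farthest to the right at 2.61.

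Totals ranged from 26383920 to 45692298 counted reads per library, and 39 members had at least 10 reads in every library. Logged normalized counts correlated at 0.988 to 0.993 within groups and at 0.931 to 0.981 between groups. Of the epithelial markers KRT8 and KRT18 were high in every library, CDH1 was at most 0.11 RPKM and KRT5 at most 0.03 RPKM, and the fibroblast marker COL1A1 was at 177.6 to 454.2 RPKM while DCN was listed at 0 throughout. The summed level of the 6 epithelial markers, nearly all of it KRT8 and KRT18, was 338 to 369 RPKM in UT, 372 to 435 in Ni-E, 466 to 494 in Ni-W and 522 to 558 in HCl3. EPCAM and CDH1 were lower in HCl3 (means 1.21 and 0.06 RPKM) than in Ni-W (1.62 and 0.09), and KRT19 was higher (0.725 and 0.655). The 6 fibroblast markers summed to 338 to 391 RPKM in UT, 178 to 338 in Ni-E, 218 to 246 in Ni-W and 434 to 456 in HCl3. The immune marker CD68 was at 14.33 to 21.8 RPKM. P4HA1 and P4HA2 had the same order of groups as KRT8 and KRT18, and the part of these marker shifts in the results was not tested. For 9 members the listed span was under 90% of that of the RefSeq gene in GRCh38.p14 (13.0% for KDM2A and 18.4% for ASPH), so the transcripts that their counts cover are uncertain. Bulk libraries cannot tell fewer cells with a transcript from less transcript per cell. RPKM values, in which reads are scaled to transcript length and to the size of the library, are given for levels, and log2 fold changes with their standard errors come from the counts.

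EGLN1 and EGLN3, whose products hydroxylate HIF alpha prolines, were higher in HCl3 than in UT, while EGLN2 and HIF1AN were not called in any comparison. EGLN1 (hg19 chromosome 1, 231499497 to 231560790, minus strand), the main oxygen-sensing HIF prolyl hydroxylase, was at 11.99 and 13.01 RPKM for UT, 11.79 and 12.13 for Ni-E, 17.81 and 19.24 for Ni-W and 19.81 and 19.39 for HCl3. Every washed-out library lay above every UT and Ni-E library. The log2 fold change against UT was -0.12 ± 0.12 for Ni-E (adjusted P = 0.605), 0.53 ± 0.11 for Ni-W (adjusted P = 1.49e-05) and 0.59 ± 0.10 for HCl3 (adjusted P = 2.47e-08). These 2 wash-out values lie on either side of the 1.5-fold limit, so that EGLN1 was called in HCl3 (1.51-fold) and not in Ni-W (1.45-fold), and HCl3 and Ni-W did not differ by test (log2 difference 0.07 ± 0.08, adjusted P = 0.679). The HCl3 call was lost without UT replicate 1 (0.53) or HCl3 replicate 1 (0.58) and with trends of GC content and length removed (0.56). In Ni-W the change passed the limit without UT replicate 2 (0.59) or Ni-W replicate 1 (0.60). The median of the genes in the 10 Mb window of EGLN1 was 0.21 in Ni-W and -0.0074 in HCl3 against UT. Against Ni-E, EGLN1 was higher by 0.64 ± 0.10 in Ni-W (adjusted P = 1.26e-09) and 0.70 ± 0.08 in HCl3 (adjusted P = 8.32e-16). The Ni-W call was lost without Ni-W replicate 2 (0.58) and when the median of the genes in the same 10 Mb window was subtracted (0.39), and with the GC and length trends removed both calls were lost (0.40 in Ni-W and 0.50 in HCl3).

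EGLN3 (hg19 chromosome 14, 34393421 to 34420284, minus strand), a HIF prolyl hydroxylase whose own gene is strongly HIF-inducible, separated the washed-out populations from each other. Its level was 0.63 and 0.46 RPKM for UT, 0.68 and 0.72 for Ni-E, 1.28 and 0.77 for Ni-W and 3.35 and 3.66 for HCl3, from 37 reads in the second UT library to 429 in the second HCl3 library. Both HCl3 libraries exceeded all others, and the second Ni-W library lay close to Ni-E. Expression rose 6.09-fold in HCl3 against UT (log2 2.61 ± 0.26, adjusted P = 3.19e-21) and 3.34-fold against Ni-W (log2 1.74 ± 0.24, adjusted P = 2.71e-11), where limma on log2(RPKM + 0.1) did not call it (1.72, adjusted P = 0.0631). In Ni-W against UT the log2 difference was 0.87 ± 0.40 (adjusted P = 0.0836), which edgeR (adjusted P = 0.0476) and a fit of all 8 libraries (adjusted P = 0.0128) placed past the threshold.

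EGLN2, which encodes a further HIF prolyl hydroxylase, had 29.57 and 25.35 RPKM for UT, 28.89 and 29.74 for Ni-E, 25.25 and 25.63 for Ni-W and 29.37 and 29.00 for HCl3. HIF1AN, whose product hydroxylates an asparagine of HIF alpha and so blocks binding of a coactivator, had 9.37 and 10.10 RPKM for UT, 9.97 and 10.02 for Ni-E, 10.03 and 10.32 for Ni-W and 10.91 and 10.88 for HCl3. Against UT the log2 differences of EGLN2 were 0.04 ± 0.13 for Ni-E, -0.15 ± 0.12 for Ni-W and 0.03 ± 0.11 for HCl3, and those of HIF1AN -0.02 ± 0.12, 0.03 ± 0.11 and 0.11 ± 0.10, with adjusted P values of at least 0.404. EGLN2 overlaps the read-through transcript RAB4B-EGLN2 on the same strand (4.86 to 9.45 RPKM), and the way reads were divided between them is uncertain. The summed RPKM of the 3 prolyl hydroxylases was 40.5 ± 2.38 (SD, n = 2) in UT, 42.0 ± 0.870 for Ni-E, 45.0 ± 0.919 for Ni-W and 52.3 ± 0.339 for HCl3. EGLN2 made up 67.7 ± 3.38% of this sum in UT, 69.8 ± 0.0152% for Ni-E, 56.6 ± 0.558% for Ni-W and 55.8 ± 0.138% for HCl3, and remained the most abundant of the 3 per length in each library. The EGLN3 share was 1.34 ± 0.218% in UT and 6.70 ± 0.463% in HCl3.

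**Figure D2:**
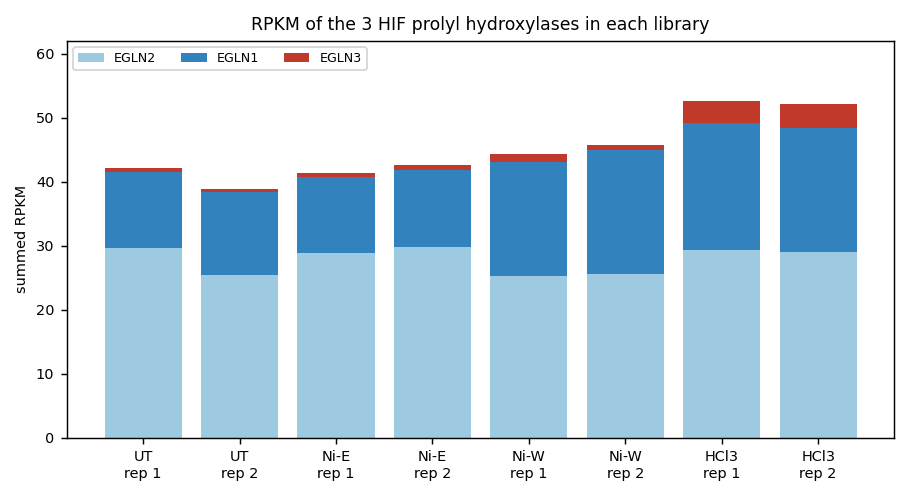
Stacked RPKM of EGLN2, EGLN1 and EGLN3 in each of the 8 libraries, with bars starting at 0. The EGLN1 segment is taller in the 4 washed-out libraries (17.81 to 19.81 RPKM) than in UT and Ni-E (11.79 to 13.01), and the EGLN3 segment is visible mainly in HCl3.

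Of the collagen prolyl 4-hydroxylase alpha subunits, which stabilise the collagen triple helix, P4HA1 was higher than UT in both washed-out groups and P4HA2 in HCl3. P4HA1 (hg19 chromosome 10, 74766980 to 74856732, minus strand) was at 51.69 and 51.09 RPKM for UT, 60.31 and 68.41 for Ni-E, 95.19 and 83.66 for Ni-W and 106.83 and 103.05 for HCl3, and the 4 groups did not overlap. Its log2 fold change against UT was 0.27 ± 0.11 for Ni-E (adjusted P = 0.0962), 0.77 ± 0.11 for Ni-W (adjusted P = 1.60e-11) and 0.98 ± 0.09 for HCl3 (adjusted P = 3.09e-26). P4HA1 was also called in HCl3 against Ni-E (0.70 ± 0.08). P4HA2 (hg19 chromosome 5, 131528304 to 131563556, minus strand) was at 55.07 and 55.69 RPKM for UT, 56.23 and 60.51 for Ni-E, 84.52 and 75.85 for Ni-W and 107.50 and 108.55 for HCl3. Again the groups did not overlap. P4HA2 rose in HCl3 by 0.92 ± 0.09 against UT (adjusted P = 1.11e-22) and by 0.88 ± 0.08 against Ni-E (adjusted P = 2.69e-27). In Ni-W it was 0.49 ± 0.11 above UT (adjusted P = 3.49e-05), under 1.5-fold, and HCl3 exceeded Ni-W by 0.43 ± 0.08 (adjusted P = 1.09e-06), also under 1.5-fold. All calls of P4HA1 and P4HA2 held without each replicate in turn. P4HA2 overlaps P4HA2-AS1 on the opposite strand (4.77 to 9.04 RPKM), and since the use of strand in counting is not stated, their reads may not be separated.

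P4HA3 was the lowest of all members, with 6 to 32 reads per library and at most 0.36 RPKM. Its levels were 0.15 and 0.11 RPKM for UT, 0.13 and 0.14 for Ni-E, 0.22 and 0.25 for Ni-W and 0.33 and 0.36 for HCl3. The difference between HCl3 and UT was 1.53 ± 0.75 (adjusted P = 0.108) in DESeq2, and edgeR called it (adjusted P = 0.0139), as it did in HCl3 against Ni-E (adjusted P = 0.0121). P4HB, the shared beta subunit, was not called. It ranged from 398.9 RPKM in the second UT library to 582 in the second HCl3 library, with log2 differences from UT of 0.13 ± 0.10 for Ni-E, 0.27 ± 0.10 for Ni-W and 0.41 ± 0.09 for HCl3. The summed RPKM of the alpha subunits was 106.9 ± 0.0141 (SD, n = 2) in UT, 122.9 ± 8.76 for Ni-E, 169.8 ± 14.3 for Ni-W and 213.3 ± 1.91 for HCl3, and P4HA1 made up 48.1% of it in UT and 49.2% in HCl3.

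PLOD2 (hg19 chromosome 3, 145787228 to 145879282, minus strand), the lysyl hydroxylase of collagen telopeptides, was higher in both washed-out groups than in Ni-E. It had the highest mean level of the 40 members (339 RPKM). Its levels were 284.73 and 328.10 RPKM for UT, 228.95 and 245.49 for Ni-E, 400.14 and 417.04 for Ni-W and 420.13 and 390.05 for HCl3. Both Ni-E libraries were below UT and all 4 washed-out libraries above. Against Ni-E it rose 1.73-fold in Ni-W (log2 0.79 ± 0.08, adjusted P = 1.72e-19) and 1.69-fold in HCl3 (0.76 ± 0.07, adjusted P = 1.57e-23), and both calls held without each replicate. Against UT the differences stayed under 1.5-fold, at -0.43 ± 0.11 for Ni-E (adjusted P = 0.00248), 0.38 ± 0.10 for Ni-W (adjusted P = 0.00171) and 0.35 ± 0.10 for HCl3 (adjusted P = 0.00210). PLOD2 was 1 of 3 members with an adjusted P value under 0.05 and no regard to fold in Ni-E against UT, with KDM2A and JMJD1C, all lower, beside 5.52% of all genes that were lower by this rule. PLOD1 (95.81 to 113.8 RPKM) and PLOD3 (42.14 to 56.02 RPKM), the other procollagen lysyl hydroxylases, were not called. PLOD3 lies opposite ZNHIT1 (38.68 to 52.34 RPKM), so its reads are uncertain in the same way.

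**Figure D3:**
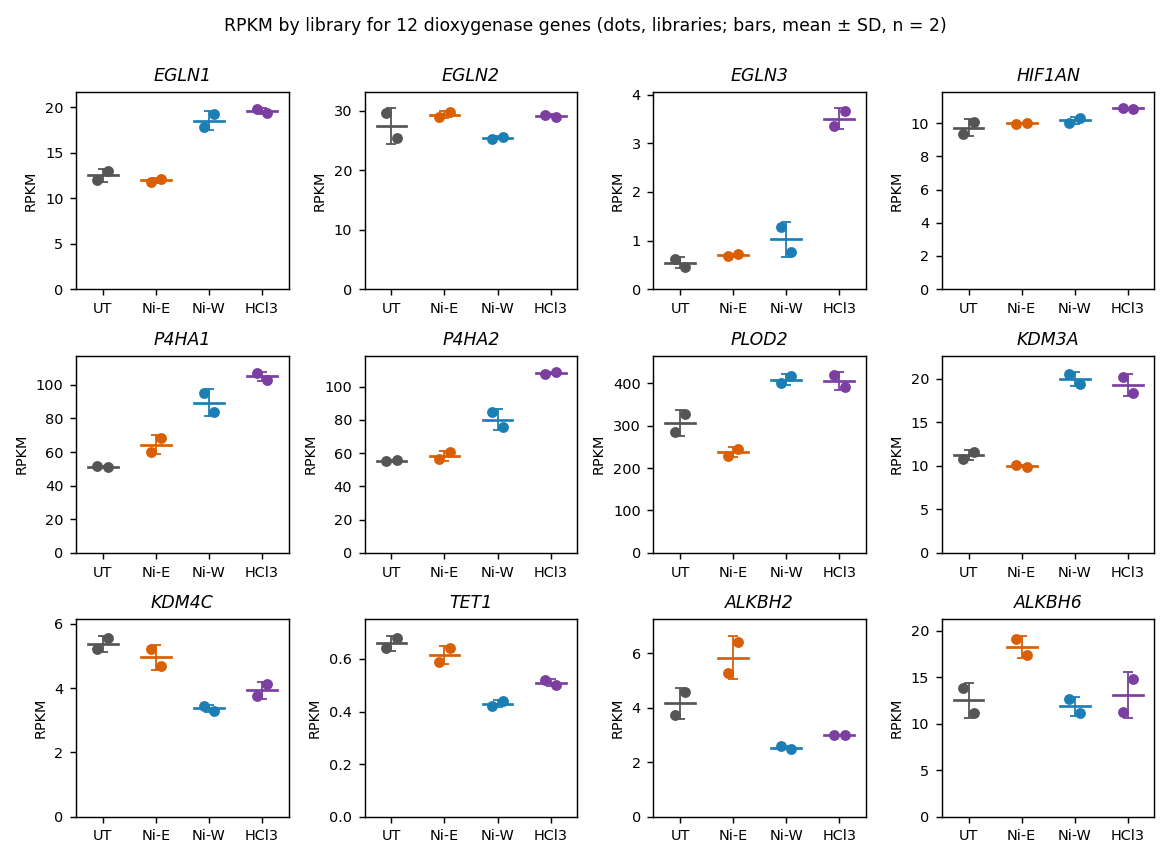
RPKM in each library for the 4 HIF hydroxylases and the 8 further members called in at least 1 comparison, with the mean and SD of the 2 libraries of a group and each axis starting at 0. EGLN1, P4HA1, P4HA2, PLOD2 and KDM3A are higher in Ni-W and HCl3 than in UT and Ni-E, KDM4C and TET1 are lower, and ALKBH2 and ALKBH6 are highest in Ni-E.

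Promoters are shown for the 6 members called higher in a washed-out population, PLOD2 only against Ni-E, to let the core of the hypoxia response element be read. The 6 were picked by these results. All are on the list of 9 HIF-inducible members given below, which was drawn up with earlier results of these data known. That list also holds KDM4C, called lower, and PLOD1 and KDM4B, not called. RefSeq promoters (GRCh38.p14) were matched by symbol for 37 of the 40 members, and not for P4HA3, JMJD6 and ASPH. Each sequence gives the 250 bases before the transcription start on the strand of the gene, 5′ to 3′. Capitals mark ACGTG and GCGTG, the cores that HIF can bind, or their reverse complements CACGT and CACGC.

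EGLN1, chr1:231422288-231422537, minus strand: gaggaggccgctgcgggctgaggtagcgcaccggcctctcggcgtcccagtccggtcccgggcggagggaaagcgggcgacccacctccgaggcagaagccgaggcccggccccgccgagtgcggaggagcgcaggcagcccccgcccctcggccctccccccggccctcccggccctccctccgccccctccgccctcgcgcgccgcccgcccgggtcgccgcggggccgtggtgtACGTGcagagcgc
EGLN3, chr14:33951075-33951324, minus strand: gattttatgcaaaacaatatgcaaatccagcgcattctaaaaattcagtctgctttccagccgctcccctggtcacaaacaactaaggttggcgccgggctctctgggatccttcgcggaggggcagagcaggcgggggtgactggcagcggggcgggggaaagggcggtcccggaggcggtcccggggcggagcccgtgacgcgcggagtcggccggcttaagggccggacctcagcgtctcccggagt
P4HA1, chr10:73096867-73097116, minus strand: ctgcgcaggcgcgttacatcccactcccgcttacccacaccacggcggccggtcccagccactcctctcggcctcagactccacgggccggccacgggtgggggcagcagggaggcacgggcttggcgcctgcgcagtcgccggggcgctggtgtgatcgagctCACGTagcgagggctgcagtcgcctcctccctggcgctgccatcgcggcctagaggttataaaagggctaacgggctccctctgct
P4HA2, chr5:132227092-132227341, minus strand: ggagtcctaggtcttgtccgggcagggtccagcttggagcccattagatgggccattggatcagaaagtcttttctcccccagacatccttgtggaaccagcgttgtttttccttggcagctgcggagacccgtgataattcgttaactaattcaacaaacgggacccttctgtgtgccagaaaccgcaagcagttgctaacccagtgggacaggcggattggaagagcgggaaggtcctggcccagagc
PLOD2, chr3:146161185-146161434, minus strand: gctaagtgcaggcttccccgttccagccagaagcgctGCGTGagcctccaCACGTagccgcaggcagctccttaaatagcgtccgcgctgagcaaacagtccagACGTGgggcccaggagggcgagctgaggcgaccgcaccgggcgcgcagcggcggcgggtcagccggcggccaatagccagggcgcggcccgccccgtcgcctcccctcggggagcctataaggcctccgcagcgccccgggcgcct
KDM3A, chr2:86441121-86441370, plus strand: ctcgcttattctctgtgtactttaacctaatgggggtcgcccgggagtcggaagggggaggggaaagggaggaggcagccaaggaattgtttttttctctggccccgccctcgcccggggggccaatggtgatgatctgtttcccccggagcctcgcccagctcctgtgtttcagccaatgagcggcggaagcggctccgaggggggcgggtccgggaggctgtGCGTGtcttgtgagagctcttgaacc

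EGLN1 held ACGTG from 13 to 9 bases before the start, P4HA1 held CACGT from 86 to 82 bases before it, and KDM3A held GCGTG from 26 to 22 bases before it. PLOD2 held 3 matches, starting 213, 200 and 146 bases before the start. No match was found in this window for EGLN3 and P4HA2. Either core was present in 22 of the 37 member promoters (59.5%) and in 43.1% of 27305 promoters in the table, so that a match by itself is common. TET3 and KDM4C, which were not higher after wash-out, held 5 matches each. The coordinates belong to another build than those of the deposited files (hg19) and are not to be mixed with them.

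KDM3A (hg19 chromosome 2, 86668584 to 86719839, plus strand), a demethylase of histone H3 lysine 9 and a known HIF target, was the only one of the 11 histone demethylases among the 40 members that was called higher than UT in both washed-out groups. It was at 10.83 and 11.61 RPKM for UT, 10.07 and 9.90 for Ni-E, 20.56 and 19.44 for Ni-W and 20.24 and 18.43 for HCl3. The washed-out libraries did not overlap with the others. Expression was 1.75-fold higher in Ni-W (log2 0.81 ± 0.11, adjusted P = 5.82e-12) and 1.65-fold higher in HCl3 (0.72 ± 0.11, adjusted P = 2.20e-10) than in UT, and 2.00-fold and 1.88-fold higher than in Ni-E. Ni-E itself was at -0.20 ± 0.12 against UT (adjusted P = 0.330). All 4 calls of KDM3A held without each replicate in turn and in the other fits tried at the same thresholds. The paralog KDM3B was not called (23.26 to 30.89 RPKM).

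KDM4C, a demethylase of trimethylated H3 lysine 9, was lower in Ni-W than in UT, and most genes around it were below their UT level too. Its levels were 5.20 and 5.55 RPKM for UT, 5.22 and 4.68 for Ni-E, 3.45 and 3.28 for Ni-W and 3.74 and 4.12 for HCl3, and no washed-out library reached the lowest UT or Ni-E library. The log2 fold change was -0.71 ± 0.15 in Ni-W (adjusted P = 1.41e-05), -0.52 ± 0.14 in HCl3 (adjusted P = 0.000926, under 1.5-fold) and -0.17 ± 0.15 in Ni-E (adjusted P = 0.555). KDM4C lies on hg19 chromosome 9, 6757641 to 7175648. Of 32 genes starting within 10 Mb of it, whose mean normalized count was 50 or more, 31 had a log2 fold change below 0 in Ni-W, with a median of -0.74, and 17 were called lower. In HCl3 29 of 33 such genes were below 0 (median -0.43, 10 called lower), and in Ni-E 19 of 31 (median -0.10, 1 called lower). When the median of its 10 Mb window was subtracted, the value of KDM4C in Ni-W was 0.01 and the call was lost. The call was also lost with limma on log2(RPKM + 1), where the difference was -0.55. In Ni-W against Ni-E KDM4C was called with the GC and length trends removed (-0.69) or without Ni-E replicate 2 (-0.66).

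**Figure D4:**
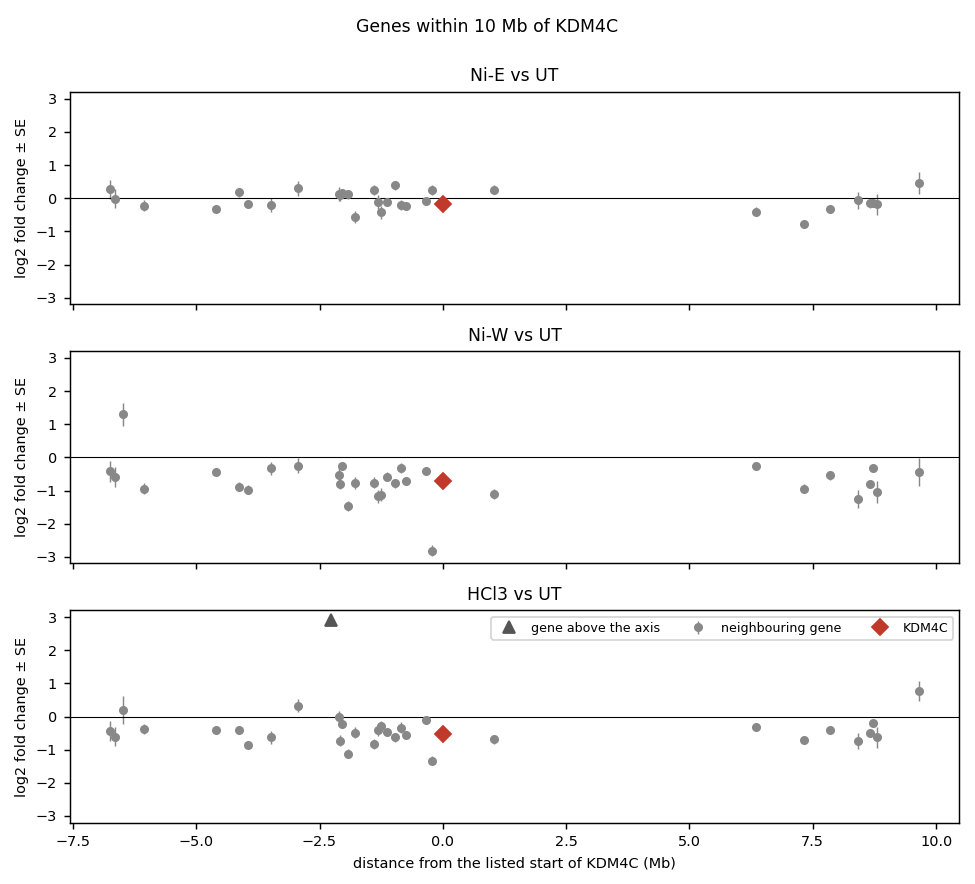
Log2 fold change ± standard error of genes within 10 Mb of the start of KDM4C, by distance in Mb, for Ni-E, Ni-W and HCl3 against UT, with KDM4C as a red diamond and a triangle for SLC1A1 in HCl3, which lies above the axis at 7.62. In Ni-W and HCl3 KDM4C lies among neighbours that are mostly below 0 (31 of 32 and 29 of 33), and in Ni-E the neighbours scatter around 0.

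The remaining histone demethylases were not called by DESeq2 in any comparison. KDM5B, which demethylates H3 lysine 4, came closest, with a log2 difference from UT of 0.55 ± 0.10 in Ni-W (adjusted P = 1.42e-06, 1.47-fold), and it was called without UT replicate 2 (0.59) or Ni-W replicate 1 (0.59) and with limma on log2(RPKM + 0.1) (0.59, adjusted P = 0.0184). KDM4B, another known HIF target, was 0.35 ± 0.12 above UT in HCl3 (adjusted P = 0.0124, 1.27-fold). KDM2A was -0.31 ± 0.11 in Ni-E (adjusted P = 0.0457), and in Ni-W against Ni-E it passed the limit with the window median subtracted (0.69). Among the 11 histone demethylases, mean levels over the 8 libraries ran from 1.10 RPKM for KDM4D to 27.4 RPKM for KDM3B, and the median log2 fold change of the group was -0.15 for Ni-E, 0.10 for Ni-W and 0.09 for HCl3, beside medians of all genes tested of -0.0016, 0.01 and 0.01.

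TET1 (hg19 chromosome 10, 70320117 to 70454239, plus strand), which oxidises methylated cytosine in DNA, was slightly lower in Ni-W, and TET2 and TET3 were not called. TET1 was at 0.64 and 0.68 RPKM for UT, 0.59 and 0.64 for Ni-E, 0.42 and 0.44 for Ni-W and 0.52 and 0.50 for HCl3, from 146 to 260 reads per library. The Ni-W and HCl3 libraries were below those of UT and Ni-E. In Ni-W the log2 fold change was -0.66 ± 0.24 (adjusted P = 0.0234), a call that was lost without any of the 4 libraries (-0.70 to -0.62, adjusted P = 0.155 to 0.362) and with limma. In HCl3 the value was -0.42 ± 0.23 (adjusted P = 0.145). Against Ni-E, TET1 was called in Ni-W with the GC and length trends removed (-0.84). TET2 was at 2.14 and 2.32 RPKM for UT, 1.62 and 2.08 for Ni-E, 2.28 and 2.22 for Ni-W and 2.36 and 2.14 for HCl3. TET3 was at 4.83 and 4.82 RPKM for UT, 3.91 and 5.29 for Ni-E, 3.87 and 4.46 for Ni-W and 4.12 and 4.24 for HCl3. Their log2 differences from UT lay between -0.33 ± 0.17 (TET2 in Ni-E) and -0.02 ± 0.14 (TET2 in Ni-W), and TET3 in HCl3 was at -0.26 ± 0.11 (adjusted P = 0.0467, under 1.5-fold). Both TET2 libraries of Ni-E lay below all others, and the other groups overlapped. For TET3 both UT libraries lay above those of Ni-W and HCl3, and the range of Ni-E overlapped with every group.

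In the ALKBH and FTO group, several of whose members remove alkyl groups from DNA, RNA or protein, 0 members were called against UT by DESeq2 or edgeR. Against Ni-E 2 of the 9 were called in Ni-W and 1 in HCl3, beside 20.5 and 17.1% of all genes, so that the count in Ni-W was near the background. At an unadjusted P value under 0.05 there were 2 members for Ni-E, 3 for Ni-W and 2 for HCl3 against UT. ALKBH2 (hg19 chromosome 12, 109525993 to 109531293, minus strand), a DNA alkylation repair enzyme, was at 3.75 and 4.57 RPKM for UT, 5.28 and 6.41 for Ni-E, 2.58 and 2.49 for Ni-W and 3.00 and 2.99 for HCl3. Ni-E was highest and the washed-out libraries lowest, with UT between them. ALKBH2 was 2.18-fold lower in Ni-W than in Ni-E (log2 -1.13 ± 0.26, adjusted P = 8.16e-05), a call that held without each replicate. It was 1.91-fold lower in HCl3 than in Ni-E (-0.93 ± 0.25, adjusted P = 0.000773), and that call was lost without Ni-E replicate 2 (adjusted P = 0.0503), HCl3 replicate 1 (0.0906) or HCl3 replicate 2 (0.0829). Against UT its values were 0.57 ± 0.26 in Ni-E (adjusted P = 0.146) and -0.54 ± 0.29 in Ni-W (adjusted P = 0.146), where limma on log2(RPKM + 0.1) called it (-0.69, adjusted P = 0.0457).

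ALKBH6 (hg19 chromosome 19, 36500023 to 36505141, minus strand) was at 13.89 and 11.22 RPKM for UT, 19.13 and 17.45 for Ni-E, 12.62 and 11.17 for Ni-W and 11.32 and 14.85 for HCl3. The Ni-E libraries lay above all others, and the other groups overlapped. The difference between Ni-W and Ni-E was -0.62 ± 0.17 (adjusted P = 0.000836). It was lost without Ni-E replicate 1 (-0.53) or Ni-W replicate 2 (-0.54), with the GC and length trends removed (-0.37), with limma on log2(RPKM + 1) (-0.58) and with the window median subtracted (-0.40). In HCl3 against Ni-E it was -0.50 ± 0.17 (adjusted P = 0.0113, under 1.5-fold), and it passed the limit without Ni-E replicate 2 (-0.60) or HCl3 replicate 2 (-0.71). ALKBH5, an RNA demethylase that removes methyl groups from adenosine, had the highest level of the group, 52.56 to 74.20 RPKM. Its log2 difference from UT was -0.40 ± 0.10 in Ni-W (adjusted P = 0.000458, under 1.5-fold). Genes in its window had a similar median there, -0.38. In HCl3 the window median was -0.43, while ALKBH5 itself was at -0.20. The other ALKBH genes and FTO, the other RNA methyladenosine demethylase, were not called. ALKBH3 passed the limit in Ni-W against Ni-E without Ni-E replicate 2 (-0.60) or Ni-W replicate 1 (-0.61) and with libraries thinned to the smallest total (-0.60), as ALKBH7 did without Ni-W replicate 1 (-0.77). FTO ranged from 7.92 to 9.35 RPKM. The group median against UT was 0.11 for Ni-E, -0.25 for Ni-W and -0.20 for HCl3. ALKBH4 lies opposite ORAI2 (5.71 to 7.20 RPKM), which makes its count uncertain.

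None of the 5 other JmjC genes was called by DESeq2 in any comparison, and in each comparison with UT 1 of them had an unadjusted P value under 0.05. PHF2, a JmjC demethylase, had 9.78 and 10.02 RPKM for UT, 10.41 and 11.19 for Ni-E, 13.92 and 14.59 for Ni-W and 14.96 and 13.71 for HCl3, a difference from UT of 0.49 ± 0.11 in Ni-W (adjusted P = 0.000110) and 0.48 ± 0.11 in HCl3 (adjusted P = 5.91e-05), both under 1.5-fold. The median of the genes in the 10 Mb window of PHF2 was 0.39 in Ni-W and 0.25 in HCl3 against UT. JMJD1C was -0.38 ± 0.13 in Ni-E (adjusted P = 0.0326). JMJD6 ranged from 27.21 to 30.05 RPKM, and JMJD4, JARID2 and JMJD1C from 2.37 to 10.14 RPKM. Against Ni-E, JARID2, a partner of Polycomb that lacks catalytic activity, was 0.50 ± 0.17 higher in Ni-W and JMJD4 -0.52 ± 0.15 (1.41-fold and 1.43-fold), and both passed the limit without Ni-E replicate 2 (0.63 and -0.60) or Ni-W replicate 1 (0.66 and -0.63) and with the window median subtracted (0.76 and -0.75). JMJD4 lies opposite SNAP47 (18.61 to 26.77 RPKM). ASPH, the aspartyl and asparaginyl hydroxylase of the endoplasmic reticulum, was at 48.27 to 57.13 RPKM, and its locus also encodes proteins without the hydroxylase domain. PHYH, the peroxisomal phytanoyl-CoA hydroxylase, was at 12.29 to 16.86 RPKM and was 0.37 ± 0.14 above UT in Ni-W (adjusted P = 0.0337, under 1.5-fold).

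A list of 9 members known as HIF-inducible (EGLN1, EGLN3, P4HA1, P4HA2, PLOD1, PLOD2, KDM3A, KDM4B and KDM4C) held most of the calls against UT. In Ni-E against UT 0 of the 9 were called by DESeq2 or edgeR (2 at an unadjusted P value under 0.05), and their median log2 fold change was -0.0034. Limma called 0 of the 9 there, as of all 17794 genes it tested. In Ni-W 3 of the 9 were called, KDM3A and P4HA1 higher and KDM4C lower, with a median of 0.49. In HCl3 5 of the 9 were called, all higher, with a median of 0.59. Of the other 31 members 0 were called in HCl3 by DESeq2 (7 at an unadjusted P value under 0.05), where edgeR and limma on log2(RPKM + 0.1) called P4HA3, and 1, TET1, in Ni-W, with medians of -0.03 and -0.04. All genes tested had medians of 0.01 in Ni-W and 0.01 in HCl3. Of them, 15.7% were called for Ni-W (10.9% higher) and 14.8% for HCl3 (11.1% higher), against 5.80% for Ni-E. The list was drawn up with earlier results of these data known and is given as a description.

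The genes of HIF alpha subunits, the substrates of the EGLN enzymes, were higher after wash-out as well. HIF1A was at 25.31 and 27.90 RPKM for UT, 23.80 and 24.25 for Ni-E, 48.32 and 53.92 for Ni-W and 80.35 and 75.43 for HCl3. Its log2 fold change was -0.20 ± 0.11 for Ni-E (adjusted P = 0.287), 0.91 ± 0.11 for Ni-W (adjusted P = 1.36e-14) and 1.49 ± 0.10 for HCl3 (adjusted P = 3.46e-51). EPAS1, the other main alpha subunit, was at 8.35 and 8.77 RPKM for UT, 9.91 and 10.59 for Ni-E, 13.92 and 13.92 for Ni-W and 19.27 and 18.81 for HCl3, with called changes of 0.67 ± 0.11 in Ni-W and 1.10 ± 0.10 in HCl3. The EPAS1 value in Ni-W was 0.58, under the fold limit, with the GC and length trends removed. ARNT, the common beta subunit, was not called against UT (0.50 ± 0.11 in Ni-W and -0.06 ± 0.11 in HCl3), and VHL was not called (-0.19 ± 0.15 and -0.53 ± 0.15) but passed the limit in HCl3 without UT replicate 2 (-0.74). In a list of 10 HIF target genes outside the family, 3 were called in Ni-E by DESeq2, all higher, beside 5.80% of all genes. Limma called 0 of the 10 in Ni-E, where it called 0 of all 17794 genes. In Ni-W 7 were called (6 higher and 1 lower) and in HCl3 10 (9 higher and 1 lower), beside 15.7 and 14.8% of all genes. These counts depended on the fit. All 8 libraries in one fit gave 2 for Ni-E, 7 for Ni-W and 9 for HCl3, as did the replicate block. Both limma inputs gave 6 for Ni-W and 9 for HCl3. For Ni-W the count was 6 with the GC and length trends removed and 8 with the window median subtracted. Removing these trends also lost NDRG1 in Ni-E (0.57) and made ADM lower there (-0.76). Without UT replicate 1 the ADM value in Ni-E was -0.63. CA9, a carbonic anhydrase, was at 0.81 and 0.50 RPKM for UT, 0.62 and 1.58 for Ni-E, 8.95 and 5.12 for Ni-W and 20.06 and 21.42 for HCl3. VEGFA, an angiogenic growth factor, was called in Ni-E (1.27 ± 0.14) and HCl3 (0.95 ± 0.13) and stayed under 1.5-fold in Ni-W (0.51 ± 0.14), and ADM, a vasodilator peptide, was lower in Ni-W (-2.04 ± 0.10) and HCl3 (-0.80 ± 0.09).

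**Figure D5:**
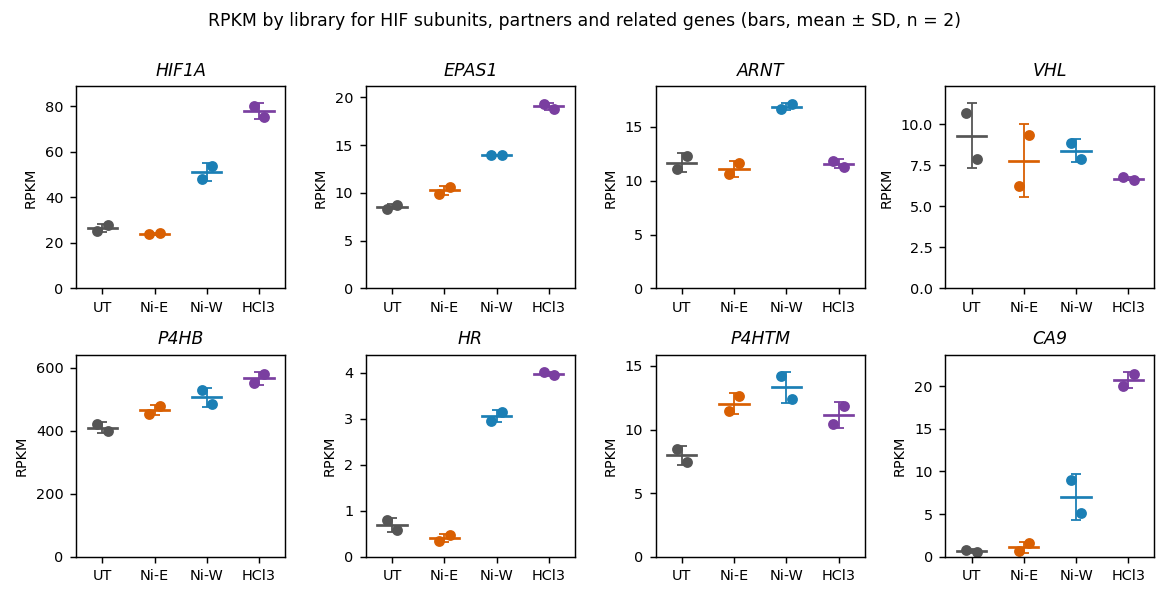
RPKM in each library, with the mean and SD of the 2 libraries of a group, for the HIF subunits HIF1A, EPAS1 and ARNT, for VHL, P4HB, the related dioxygenases HR and P4HTM, and the HIF target CA9. HIF1A, EPAS1, HR and CA9 are highest in HCl3 and next highest in Ni-W.

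Among 25 further genes of the same enzyme family, 22 were tested in each comparison and 3, KDM4E, BBOX1 and PHYHD1, were listed at 0 in every library. Against UT 0 were called in Ni-E by DESeq2 or edgeR (3 at an unadjusted P value under 0.05), beside 5.80% of all genes. In Ni-W 2 were called, HR and P4HTM, and in HCl3 1, HR, beside 15.7 and 14.8% of all genes. Limma called 0 of the 22 in Ni-E, where it called 0 of all 17794 genes. With the GC and length trends removed 2 were called in Ni-E, HR lower (-0.94) and KDM7A higher (0.76), and 0 when the replicate block was added. Without UT replicate 1 the count in HCl3 was 3, with MINA (-0.59) and OGFOD1 (-0.63) lower. HR, a JmjC demethylase and corepressor of nuclear receptors, was at 0.79 and 0.58 RPKM for UT, 0.35 and 0.47 for Ni-E, 2.96 and 3.15 for Ni-W and 4.01 and 3.95 for HCl3. It rose by 2.13 ± 0.21 in Ni-W (adjusted P = 2.52e-22) and 2.49 ± 0.19 in HCl3 (adjusted P = 6.36e-37), and was at -0.79 ± 0.34 in Ni-E (adjusted P = 0.122), a difference that a fit of all 8 libraries called (adjusted P = 0.00177). P4HTM, a transmembrane prolyl 4-hydroxylase able to act on HIF alpha, was at 8.50 and 7.43 RPKM for UT, 11.46 and 12.63 for Ni-E, 14.19 and 12.44 for Ni-W and 10.40 and 11.85 for HCl3, with log2 fold changes of 0.53 ± 0.16, 0.71 ± 0.15 and 0.42 ± 0.15, the last of which passed the limit with the window median subtracted (0.78). The Ni-W value passed the fold limit, and this call was lost without Ni-W replicate 1 (0.62, adjusted P = 0.0750).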

How the data were processed

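RNA-Seq of 8 BEAS-2B libraries was used, 2 per group, with groups and the repeat suffix of each group's second library taken from the labels. With STAR 2.4 the authors aligned reads to hg19, discarded multi-mapping reads and deposited read counts per RefSeq gene, obtained with BioWardrobe, each library on its own. The authors also deposited RPKM values, rounded to 2 decimals. Whether strand was used is not given in the sources used here. Each value sums the exons of all transcripts listed for a gene.

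The deposited counts of all 25411 genes were tested for each pair of groups with DESeq2 1.42.0 in R 4.3.3, with only the 4 libraries of the pair (size factors by median of ratios, Wald test on 2 sides, default independent filtering, Benjamini-Hochberg adjustment over all genes tested). With 2 libraries a group the adjusted P values rest on a spread shared across genes. RPKM values were used for levels and family shares. The 10 Mb windows needed 10 genes of mean normalized count 50 or more. Totals of 26383920 to 45692298 reads set the precision, since 3 reads make up 6.57e-06 to 1.14e-05% of a library, which covers counting error only.

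The members and gene lists were chosen with earlier results of these data known. Values in every library are given for each member called in any comparison, all HIF hydroxylases and all TET genes, and for genes outside the 40 only HIF subunits and partners, further dioxygenases called against UT and at most 3 HIF targets. PHF2, P4HA3 and genes whose call depended on 1 library were named after their values were seen.

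Calls were repeated with edgeR 4.0.16 (quasi-likelihood), limma 3.58.1 with log2(RPKM + 1) or log2(RPKM + 0.1) as input, TMM size factors, all 8 libraries in one fit, a minimum mean count of 10, other fold limits, libraries thinned to the smallest total, the replicate suffix as a block, GC and length trends removed with and without that block, the window median subtracted, and each replicate left out. The crossed block was added after seeing the data. On simulated data for Ni-W against UT (25411 genes, 200 changed) DESeq2 recovered 200 with 0 false calls, edgeR 200 with 1 and limma 197 with 9. The planted changes all lay well above the 1.5-fold limit, in genes with mean counts well above 10, and every gene had the same spread. Recovery near the limit or at low counts was therefore not tested. With a GC trend planted, DESeq2 recovered 197 of the 200 with 3589 false calls. Removing GC and length trends there gave 200 with 0 false calls. Promoters were read from a RefSeq table. Figures were drawn with matplotlib 3.10.9.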

Additional observations from a re-analysis of the deposited data

Results flagged for a closer look

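EGLN3 was the only one of the 40 members that differed between the washed-out populations past the threshold. The difference between HCl3 and Ni-W was tested directly in a fit of their 4 libraries (log2 1.74, adjusted P = 2.71e-11 in DESeq2), with HCl3 higher in 2 of 2 libraries. It held without each replicate (1.44 to 2.17), and with limma on log2(RPKM + 0.1) the adjusted P value was 0.0631.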

How the results depend on the processing

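The counts of called members were within 1.5 times the reported count under most alternatives. With no fold threshold the members called numbered 3 for Ni-E, 11 for Ni-W and 12 for HCl3 against UT, 19 in Ni-W and 18 in HCl3 against Ni-E, and 5 in HCl3 against Ni-W. At 2-fold they numbered 0 in Ni-W and 1 in HCl3 against UT, and 1 in Ni-W and 1 in HCl3 against Ni-E. Of all genes, 1368 of 15826, 1308 of 15766, 1619 of 15989 and 1374 of 15953 passed at 2-fold in these comparisons. Limma on log2(RPKM + 1) called 2 members in Ni-W against UT, and limma on log2(RPKM + 0.1) called 0 in HCl3 against Ni-W. Leaving out each replicate gave 0 to 0 members for Ni-E, 3 to 5 for Ni-W and 4 to 5 for HCl3 against UT, 3 to 9 in Ni-W and 6 to 7 in HCl3 against Ni-E, and 1 to 1 in HCl3 against Ni-W. With the window median subtracted KDM4C in Ni-W against UT changed from -0.71 to 0.013, since the median of the window was -0.72.

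The repeat suffix is only a number, since 2 pairs a comparison cannot show pairing, and same-suffix deviations correlated at -0.160 to 0.200. With the replicate block the calls numbered 0 in Ni-E, 3 in Ni-W (TET1 lost, adjusted P = 0.0928) and 5 in HCl3 against UT, 5 and 7 against Ni-E and 1 between HCl3 and Ni-W. The crossed pairing, used for the 3 comparisons with a correlation under -0.1, gave 0 calls in Ni-E against UT, 5 in HCl3 against UT and 5 in Ni-W against Ni-E.

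Log2 fold changes of all genes followed GC content (Spearman 0.357 for Ni-E, 0.0714 for Ni-W and 0.281 for HCl3 against UT, across genes), which bears on values near the fold limit such as EGLN1. Depth limits P4HA3, EGLN3, KDM4D, ALKBH2 and TET1, which had low read counts. KDM4D had 80 to 184 reads per library and ALKBH2, a called member, 103 to 264.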
